A study of Rattus norvegicus with 12 samples.

Results

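The opioid and cannabinoid system of the rat colon was examined by 10 genes: the opioid peptide precursor Penk, the opioid receptors Oprm1, Oprd1, Oprk1 and Oprl1, the cannabinoid receptors Cnr1 and Cnr2, and the enzymes Napepld, Faah and Mgll, which make or break down endocannabinoids and related lipids. The members were all probes that were no controls and that carried one of these gene names in the array files, which gave 17 of 30367 probes. Colon of 12 male Wistar rats was measured, 1 rat on each 1-colour array, at postnatal day 60 and after colorectal distension (CRD). The 4 rats of Group C (C1 to C4) were normally handled and received placebo, the 4 rats of Group M (M5 to M8) were separated from their mothers for 180 min daily from day 2 to day 14 (neonatal maternal separation, NMS) and received placebo, and the 4 rats of Group D (D9 to D12) underwent the same NMS and received VSL#3, a mixture of probiotic bacteria, from day 3 to day 60. Placebo and VSL#3 were given daily by gavage in 100 µL saline, and the labels and the study's methods state different doses of VSL#3. The study's heat maps show 11 rats without D12, so that comparisons were made without D12 and its value is given beside them. Groups C and M shared slide 1, each in an array row of its own, and Group D had slide 2 in a second scan, so that slide and group cannot be told apart in the comparisons of Group D.

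Opioid peptides such as the enkephalins act on receptors coupled to inhibitory G proteins. In the gut these receptors sit mainly on enteric neurons, where they slow transit and secretion and dampen pain signals. The endocannabinoids anandamide and 2-arachidonoylglycerol act on the same kind of receptor: CB1, encoded by Cnr1, is found on neurons and on some epithelial cells, and CB2, encoded by Cnr2, is found mainly on immune cells, B cells above all. NAPE-PLD, encoded by Napepld, releases anandamide and related acylethanolamides from membrane lipids. FAAH, encoded by Faah, hydrolyses anandamide, and monoglyceride lipase, encoded by Mgll, hydrolyses 2-arachidonoylglycerol.

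Each probe was a DNA strand of 60 bases, and its letters define what was measured. The probes below of Cnr1, Faah and Napepld are shown because the differences between the groups rest on them. That of Penk is shown for the ligand it encodes. Those of Oprl1 are shown because another probe described as the same receptor is set beside them further down. In the Penk probe the capitals mark the codons of the Met-enkephalin sequence, which codons for Arg and Phe follow directly. In the Napepld probes they mark the only base that differs within the 50 bases that both share.
Penk A_42_P749184: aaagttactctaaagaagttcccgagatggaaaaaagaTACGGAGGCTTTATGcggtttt
Cnr1 A_43_P11563: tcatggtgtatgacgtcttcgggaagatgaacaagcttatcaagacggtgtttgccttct
Napepld A_64_P148535: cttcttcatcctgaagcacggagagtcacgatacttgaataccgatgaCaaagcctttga
Napepld A_64_P166489: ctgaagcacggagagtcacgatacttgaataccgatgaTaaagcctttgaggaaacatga
Faah A_44_P228891: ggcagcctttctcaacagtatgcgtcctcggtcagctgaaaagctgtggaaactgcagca
Oprl1 A_43_P12591: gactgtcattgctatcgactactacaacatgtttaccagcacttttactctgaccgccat
Oprl1 A_64_P125150: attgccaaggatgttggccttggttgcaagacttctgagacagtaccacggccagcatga
The Penk probe lay at chr5:17509637-17509696 of rn4 on the minus strand. The Cnr1 probe shown lay at chr5:50445119-50445178, and the other Cnr1 probe, A_44_P1030258, at chr5:50449223-50449282, which is 4045 bases further on. The 2 Napepld probes began at chr4:8845640 and chr4:8845650 and differed by C49T, counted from the 5′ end of A_64_P148535, so that they read nearly the same stretch of the transcript and are no independent measurements. The Faah probe shown was given as chr5:136325787-136326538, a span of 752 bases for a probe of 60, and the other Faah probe, A_64_P128667, lay at chr5:136329754-136329813. Whether a probe lies in an exon or a UTR of rn4 is not given in the sources used here.

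Of the 17 member probes, 11 were well above background on all 12 arrays and 6 on none. A probe counted as well above background on an array when the scanner software marked at least 50% of its spots so. The 11 were those of Penk, Oprd1, Cnr1 (2 probes), Cnr2, Napepld (2 probes), Faah (2 probes) and Mgll, and 1 of the 3 Oprm1 probes. The 6 were both probes of Oprk1, the kappa receptor, both of Oprl1, the nociceptin receptor, and the other 2 of Oprm1, the mu receptor. For these 6 the log2 signal lay between -9.11 and -7.76 on every array, and no difference is given. Each log2 signal is the log2 of a probe's intensity over the 75th percentile of all intensities on its array, and signals are not compared between probes.

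The series as a whole bears on these probes in a few ways. Over the arrays, the 75th percentile ran from 1434 to 1953, 75.5% to 77.5% of spots were well above background and 0 were saturated, and 3 or 4 arrays per group limit the precision. All 12 epithelial and all 8 smooth muscle markers examined were well above background on all arrays, as were 14 of the 17 markers of enteric neurons. The libraries differed in lymphoid content: the summed level of 7 B cell markers (linear signal over the 75th percentile) was 6.03 in C2, 9.07, 5.03 and 6.27 in M5, M7 and M8, and 14.8 in D12, against 0.13 to 0.68 in the other 7 rats. These 5 rats also had the 5 highest levels of the T cell markers, 3.14 to 9.77 against 0.68 to 1.24. Of the 7 B cell markers, 2 were well above background on all 12 arrays. In a piece of bulk tissue, more cells of a type and more RNA per cell cannot be told apart.

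In Group M vs Group C, the receptor Cnr1 and the enzymes Napepld and Faah had lower signals in NMS rats, by 1.89-fold to 2.31-fold, while Penk, Oprm1 and Cnr2 had higher means with widely spread rats, and Oprd1 differed by a log2 of -0.05. No member passed the adjusted test. Of the 17 member probes, limma called 0 at an adjusted p of at most 0.05 together with a 2-fold change, and 0.165% of all probes. The nominal threshold, a limma p of at most 0.05 without adjustment, was passed by 6 member probes, all lower in Group M, against 22.7% of all probes in either direction and 12.6% that were lower. Among the probes well above background on all 12 arrays the share was 28.7%, beside 6 of 11 members. These 6 are the probes of only 3 genes, Cnr1, Napepld and Faah, and their limma adjusted p values were 0.0923 to 0.131. The criterion of the study's methods, which asks for nominal significance in a variance analysis and in Tukey's comparison plus a 2-fold change, was met by 3 member probes, A_44_P228891 of Faah and both of Napepld, against 0.935% of all probes in the same direction. The rats of both groups did not overlap in 4 member probes, both of Cnr1 and both of Napepld, all lower in Group M (5.04% of all probes). The median difference of the 11 probes above background was a log2 of -0.92, and that of all probes was -0.01. Cnr1, Napepld and Faah enter the median of the 11 with 2 probes each, so that it is no median over genes. The probes of the other genes had -0.38 (Mgll), -0.05 (Oprd1), 0.44 (Penk), 0.73 (Oprm1) and 1.38 (Cnr2).

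**Figure D1:**
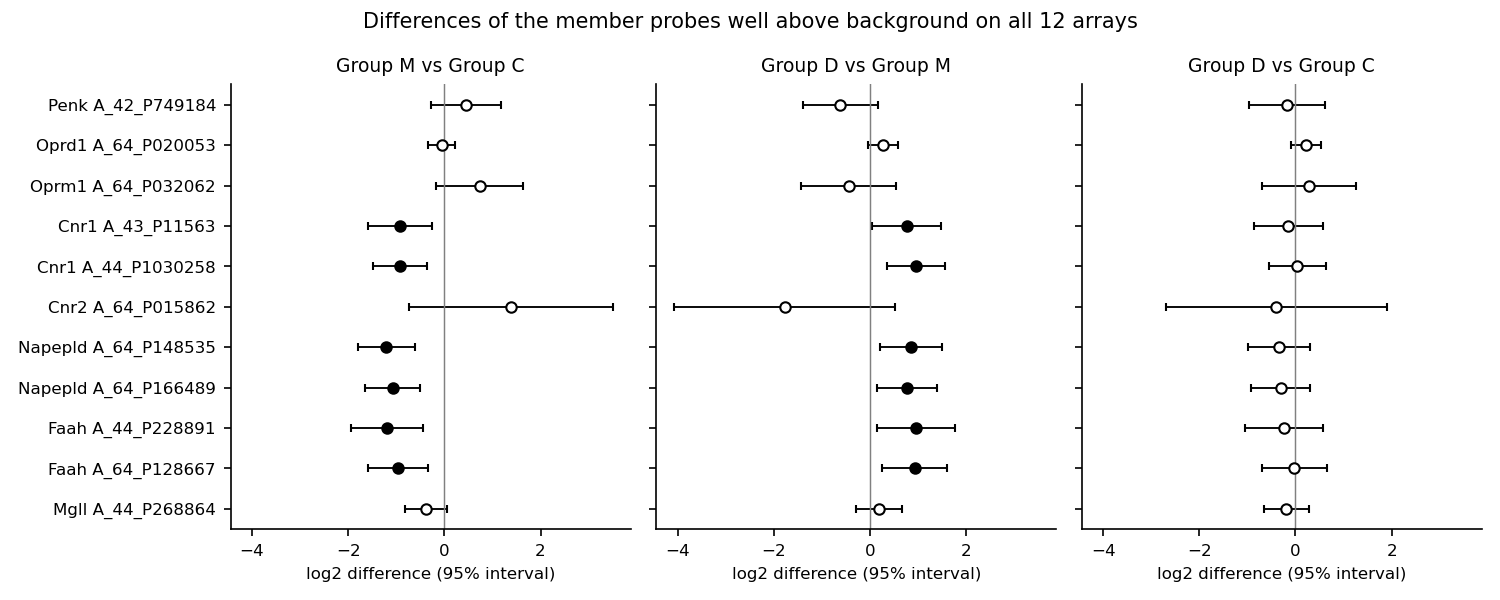
Log2 differences of the 11 member probes that were well above background on all 12 arrays, in the 3 comparisons, from limma on 11 arrays. Bars are 95% intervals, and filled points passed the nominal threshold. The 6 probes of Cnr1, Napepld and Faah lie left of 0 in Group M vs Group C and right of 0 in Group D vs Group M, and 0 points are filled in Group D vs Group C.

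In Group D vs Group M, the same 6 probes of Cnr1, Napepld and Faah had higher signals in the rats given VSL#3, by 1.70-fold to 1.95-fold. Limma called 0 of 17 member probes at the adjusted threshold (0.128% of all probes). The nominal threshold was passed by 6, all higher in Group D, against 21.6% of all probes in either direction, 11.3% that were higher, and 26.6% of the probes well above background on all 12 arrays, and the limma adjusted p values of the 6 were 0.108 to 0.209. The criterion of the methods was met by 0 member probes (2.66% of all probes). The study itself lists the Cnr1 probe A_44_P1030258 as higher in Group D than in Group M, and it reports that PCR of Cnr1 matched its array data. On the values used here this probe had a Tukey p of 0.0271 but 1.94-fold, short of the 2-fold threshold. Groups D and M did not overlap in 3 member probes, both of Napepld and that of Oprd1, all higher in Group D (8.46% of all probes). Both comparisons use the same 4 rats of Group M, so that a low value in these rats enters both of them. In Group D vs Group C, limma called 0 member probes (0.00659% of all probes), 0 passed the nominal threshold (5.97% of all probes) and 0 met the criterion of the methods (0.369% of all probes).

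How firmly these values stand depended on single rats, among them M6. Without M6, limma called 7 of 17 member probes at the adjusted threshold with a 2-fold change in Group M vs Group C, where 5.84% of all probes were called. These were the 6 probes of Cnr1, Napepld and Faah, lower in Group M by log2 differences of -1.53 to -1.10, and the Oprm1 probe, higher by 1.12. Without M6, 4 member probes were called in Group D vs Group M (6.51% of all probes), both of Faah, A_44_P1030258 of Cnr1 and A_64_P148535 of Napepld. M6 was the Group M rat with the lowest summed level of B cell markers, 0.30, and it had the highest signal of Group M in all 6 probes of Cnr1, Napepld and Faah. With the log2 of the summed B cell level as a covariate, chosen after seeing the data, the nominal threshold was passed by 6 member probes in Group M vs Group C (11.9% of all probes), by 1, the Cnr1 probe A_44_P1030258, in Group D vs Group M (8.44% of all probes) and by 1, the Oprm1 probe, in Group D vs Group C (6.67% of all probes). The part of lymphoid content in these differences was not tested further.

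Other rats and weights also moved the counts. With arrays weighted by their quality, M6 had the lowest weight of 0.365 and M8 the highest of 4.71, against 1.03 in M5 and 0.52 in M7. The weighted values of Group M thus rest largely on M8. With these weights limma called 6 member probes in Group M vs Group C (2125 of all 30367 probes), and 3 for Group D vs Group M (6.94% of all probes). The 6 were both probes of Faah and Napepld and those of Cnr2 and Oprm1, and the 3 were both probes of Faah and that of Cnr2. M7 had the lowest signal of Group M in all 6 probes of Cnr1, Napepld and Faah. Without M7, limma called 0 member probes in Group M vs Group C (11 of all 30367 probes). The criterion of the methods was then met by 0 member probes, against 3 with M7. Without C2, 10 member probes passed the nominal threshold in Group M vs Group C (26.1% of all probes). Without D10, 3 passed it in Group D vs Group M (16.2% of all probes), and with D12 in the fit 6 and 4 passed it in the comparisons with Group M (18.5% and 12.2% of all probes).

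**Figure D2:**
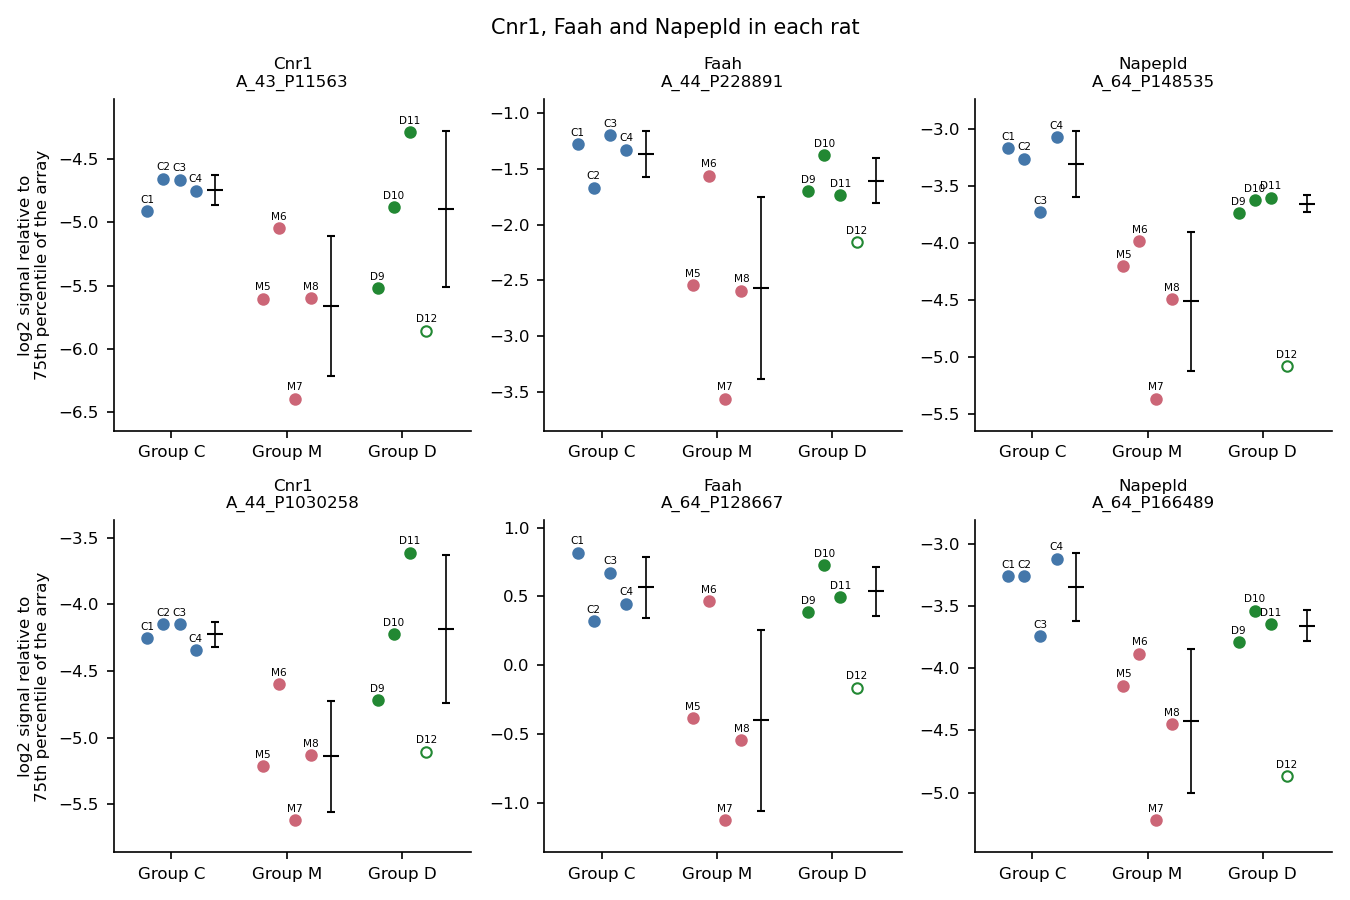
Log2 signal of the 6 probes of Cnr1, Faah and Napepld in each rat, relative to the 75th percentile of its array, with the mean ± SD of each group (black bar; Group D without D12). Open circles mark D12, which lies below D9 to D11 in all 6 panels, and M6 is the highest of Group M in all 6.

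Cnr1 encodes CB1, the main cannabinoid receptor of neurons. Its probe A_43_P11563 had log2 signals of -4.91, -4.66, -4.66 and -4.75 in C1 to C4, -5.60, -5.04, -6.39 and -5.60 in M5 to M8, and -5.52, -4.88 and -4.29 in D9 to D11, with -5.86 in D12. All rats of Group M lay below all rats of Group C, while D9 lay among Group M and D11 above Group C. The value of D9 is the mean of 2 spots that differed widely, at -6.17 and -4.88. The mean of Group C was -4.75 ± 0.12 (SD, n = 4) and that of Group M was -5.66 ± 0.56 (SD, n = 4), a log2 difference of -0.92 (standard error 0.30, limma adjusted p = 0.131). Against Group M, Group D with a mean of -4.90 ± 0.62 (SD, n = 3) differed by 0.76 (standard error 0.32, limma adjusted p = 0.209). The second probe, A_44_P1030258, gave much the same picture.
On it the signals were -4.34 to -4.15 in Group C and -5.62 to -4.60 in Group M, where M7 was lowest and M6 highest. In D9, D10 and D11 they were -4.72, -4.22 and -3.61, and in D12 -5.11. The rats of Groups C and M again did not overlap, and D9 lay below M6. The log2 difference was -0.92 (standard error 0.25, limma adjusted p = 0.108) in Group M vs Group C and 0.96 (standard error 0.27, limma adjusted p = 0.108) in Group D vs Group M. Group D and Group C differed by 0.04 on this probe, with a 95% interval from -0.56 to 0.64, and by -0.15 on the other, from -0.87 to 0.57. The SD of D9 to D11 was 0.62 and 0.56 on the 2 probes, against 0.12 and 0.09 in Group C.

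Napepld encodes the phospholipase that releases anandamide and other acylethanolamides. Probe A_64_P148535 had log2 signals of -3.17, -3.26, -3.73 and -3.07 in C1 to C4, -4.20, -3.99, -5.37 and -4.49 in M5 to M8, and -3.74, -3.62 and -3.60 in D9 to D11. Group M lay apart from both other groups, below every rat of Group C and below D9 to D11, whereas D12 had -5.08 and lay among Group M. The log2 difference was -1.20 (standard error 0.27, limma adjusted p = 0.0923) in Group M vs Group C, the lowest adjusted p of all member probes. In Group D vs Group M it was 0.86 (standard error 0.29, limma adjusted p = 0.143), and with D12 in the fit it was 0.50. Probe A_64_P166489, whose sequence overlaps, had differences of -1.08 and 0.77. Group D and Group C differed by -0.35 and -0.31 on these probes, with 95% intervals from -0.99 to 0.30 and from -0.93 to 0.31.

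Faah encodes the hydrolase that ends the action of anandamide. Probe A_44_P228891 had log2 signals of -1.28, -1.67, -1.19 and -1.32 in C1 to C4, -2.54, -1.56, -3.56 and -2.59 in M5 to M8, and -1.70, -1.37 and -1.74 in D9 to D11, with -2.15 in D12. M5, M7 and M8 lay below all rats of the other groups, but M6 lay within Group C, so that the groups overlapped. The log2 difference was -1.20 (standard error 0.34, limma adjusted p = 0.111) in Group M vs Group C and 0.96 (standard error 0.36, limma adjusted p = 0.170) in Group D vs Group M. The study lists this probe as lower in Group M than in Group C, where it met the criterion of the methods here. Probe A_64_P128667 had 0.32 to 0.82 in Group C, -1.13 to 0.46 in Group M with M6 highest, 0.39 to 0.73 in D9 to D11 and -0.16 in D12. Its log2 differences were -0.96 (standard error 0.28, limma adjusted p = 0.114) and 0.93 (standard error 0.30, limma adjusted p = 0.135). With the B cell level as a covariate, the differences of A_44_P228891 were -0.84 and 0.49 in these comparisons. Group D vs Group C gave -0.24 and -0.03 for the 2 probes.

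Mgll encodes the lipase that hydrolyses 2-arachidonoylglycerol. Log2 signals were -2.60 to -2.07 in Group C, -3.23 to -2.33 in Group M, -2.63 to -2.30 in D9 to D11, and -3.03 in D12. The groups overlapped, with M7 and D12 lowest. The log2 difference of -0.38 (95% interval from -0.81 to 0.06) in Group M vs Group C did not pass the nominal threshold, and that of Group D vs Group M was 0.19 (from -0.29 to 0.66).

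Cnr2 encodes CB2, the cannabinoid receptor of immune cells. Its log2 signals fell into separate levels that cut across the groups. C2 had -1.94, M5, M7 and M8 had -1.86, -2.54 and -2.27, and D12 had -0.94. The other 7 rats had -5.74 to -4.64, among them C1, C3 and C4 of Group C, M6 of Group M and D9 to D11. The 5 rats with high signals were the 5 with a B cell marker level of at least 5.03. Mean log2 signals were -4.48 ± 1.71 (SD, n = 4) in Group C, -3.10 ± 1.78 (SD, n = 4) in Group M and -4.88 ± 0.24 (SD, n = 3) in Group D, and 0 of the 3 comparisons passed the nominal threshold. In Group M vs Group C the log2 difference was 1.38 (95% interval from -0.74 to 3.50), and with the B cell level as a covariate it turned to -0.27. The 7 measured B cell markers had a median difference of 2.01 in the same comparison, and 0 of them passed the nominal threshold. The difference in Group D vs Group M was -1.78 (from -4.07 to 0.52), and with the covariate 0.43, while 2 of the 7 B cell markers were lower by the nominal threshold.

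Oprm1 encodes the mu receptor, the target of morphine and of the enkephalins. Probe A_64_P032062, described in the files as transcript variant MOR-1B2, had log2 signals of -4.33, -3.41, -4.25 and -4.36 in C1 to C4, -2.42, -4.51, -3.45 and -3.03 in M5 to M8, and -4.28, -3.56 and -3.56 in D9 to D11. D12 had -1.63, the highest of all. C2 was the highest of Group C and M6 the lowest of Group M, as in Cnr2. The log2 difference was 0.73 (95% interval from -0.17 to 1.64) in Group M vs Group C, 0.07 with the B cell level as a covariate and 1.12 (limma adjusted p = 0.0426) without M6. Over all settings tried the limma adjusted p of this difference ran from 0.0183 with array weights to 0.921 with the covariate. The probes described as variant MOR-1A (A_64_P061200) and variant 1 (A_64_P061205) were well above background on 0 of 12 arrays. The first of them ends 8417 bases before A_64_P032062 on chromosome 1. A signal was thus measured at 1 of the 3 places of this gene that the array probes.

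**Figure D3:**
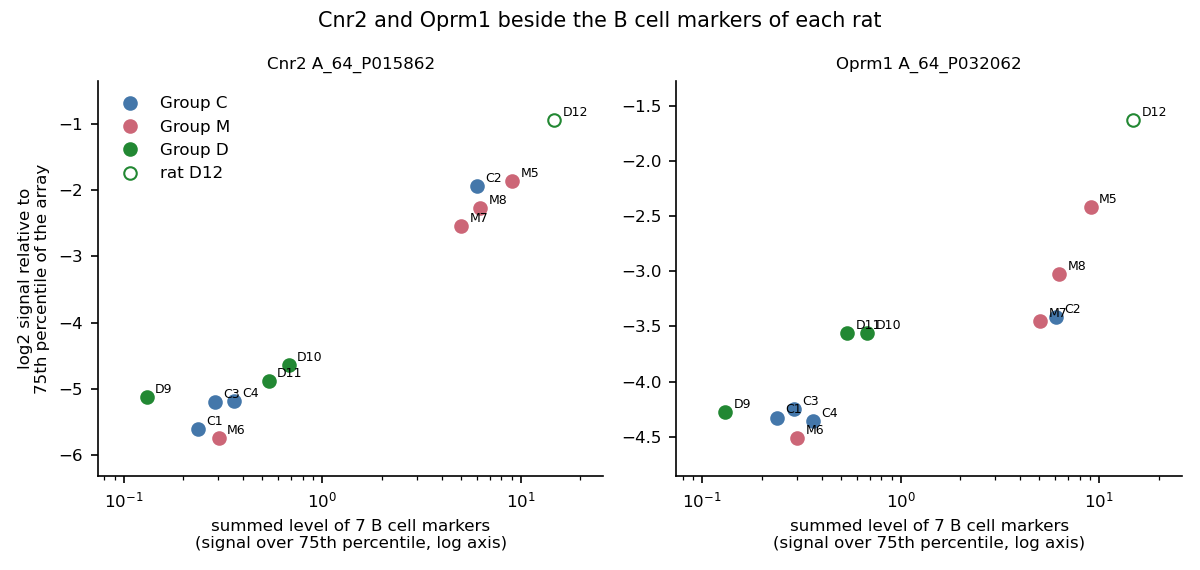
Log2 signal of the Cnr2 probe and of the Oprm1 probe A_64_P032062 in each rat against the summed level of 7 B cell markers (linear signal over the 75th percentile of the array, log axis). C2, M5, M7, M8 and D12 lie at the right with levels of 5.03 to 14.8 and have the 5 highest signals of both probes; the other rats have levels of 0.13 to 0.68.

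Oprd1 encodes the delta receptor, which binds enkephalins. Its log2 signals were -4.06, -4.62, -4.23 and -4.47 in Group C, -4.56 to -4.31 in Group M and -4.23 to -4.04 in D9 to D11, with -4.09 in D12. D9 to D12 lay above every rat of Group M, with D11 at -4.23 nearest to M7 at -4.31, and D9 lay just above C1, the highest of Group C. The log2 difference of 0.28 (95% interval from -0.03 to 0.58, limma adjusted p = 0.279) in Group D vs Group M did not pass, and that of Group M vs Group C was -0.05 (from -0.34 to 0.23).

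Penk encodes the precursor of Met- and Leu-enkephalin. Its log2 signals were -3.60, -2.47, -3.83 and -3.60 in C1 to C4, -3.10, -3.39, -2.16 and -3.07 in M5 to M8, and -3.54, -3.33 and -3.77 in D9 to D11, with -2.28 in D12. M7, D12 and C2 were the highest, and the groups overlapped. The log2 difference was 0.44 (95% interval from -0.29 to 1.17) in Group M vs Group C and -0.61 (from -1.40 to 0.17) in Group D vs Group M, and 0 of the 3 comparisons passed the nominal threshold.

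Oprl1, the receptor of nociceptin, was not well above background under its own name, but the files also describe 2 probes named ENSRNOT00000022509 as the nociceptin receptor, and the study's tables list 1 of them as opiate receptor-like 1. This probe, A_44_P408520, lies at chr3:170874575-170874634 of rn4, 1158 bases beyond the end of the Oprl1 probe A_64_P125150. Its log2 signals were -8.72 to -7.92 in Group C, -8.37 to -8.26 in Group M, -7.01, -6.95 and -7.38 in D9 to D11 and -7.40 in D12. All 4 rats of Group D lay above all rats of Groups C and M, and all 4 were on slide 2. The limma adjusted p was 0.0489 in Group D vs Group M and 0.192 in Group D vs Group C, and with D12 in the fit 0.0778 and 0.173. Without D12 the probe met the criterion of the methods in both comparisons (2.66% and 0.369% of all probes), on signals not well above background. Over the settings tried the limma adjusted p in Group D vs Group M ran from 0.00456 with array weights to 0.289 with the B cell covariate, and it was 0.224 with normexp background correction. It is measured by 10 spots, of which 0 to 3 per array were well above background, so that the level is not well above background in any group and no fold is given. On the 3 other probes with this description, both of Oprl1 and A_44_P330435, Group D did not stand apart: their log2 signals were -9.11 to -8.04 over all 12 rats. The study also reports that PCR of this receptor, on RNA of the same colon samples, matched its array data. That PCR was not tested here.

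**Figure D4:**
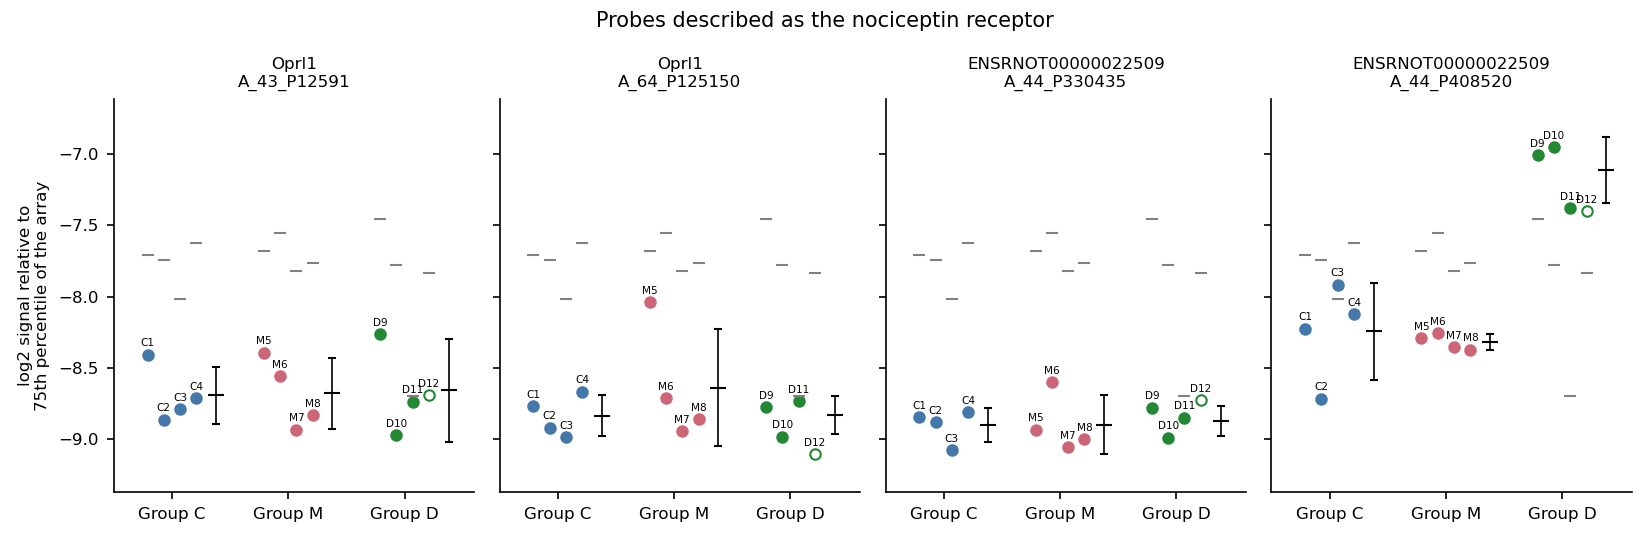
Log2 signal of the 4 probes described as the nociceptin receptor in each rat, with the mean ± SD of each group (black bar; Group D without D12, which is an open circle). Grey dashes are the lowest signal among probes well above background on each array. On A_44_P408520 the rats of Group D lie at -7.40 to -6.95 and the others at -8.72 to -7.92; the other 3 probes lie at -9.11 to -8.04.

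Beyond the members, 58 of 62 listed genes of the pathways around them were measured by 1 probe each. By the nominal threshold, 8 were higher and 11 lower in Group M vs Group C, 9 higher and 8 lower in Group D vs Group M, and 2 higher and 3 lower in Group D vs Group C, and 0 passed an adjusted p of 0.05 in any of them. Of all probes, 22.7%, 21.6% and 5.97% passed the nominal threshold in these comparisons, with 12.6% lower in the first, and 11.3% higher and 10.3% lower in the second. By list, Group M vs Group C gave 1 higher and 3 lower of 12 genes of opioid peptides and their processing, 4 and 2 of 23 genes of opioid receptor signalling, 2 and 3 of 16 genes of endocannabinoid synthesis and breakdown, and 1 and 3 of 7 genes of other cannabinoid-related receptors. Their median log2 differences were -0.11, 0.23, -0.04 and -0.31.

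Ppara encodes a nuclear receptor that acylethanolamides activate. Log2 signals of its probe were -4.46 to -3.36 in Group C, -6.11 to -4.33 in Group M, -3.89 to -3.73 in D9 to D11 and -5.98 in D12. Only M6 of Group M reached the range of Group C. The log2 difference was -1.53 (standard error 0.36, limma adjusted p = 0.0966) in Group M vs Group C and 1.52 (standard error 0.39, limma adjusted p = 0.0962) in Group D vs Group M, and both met the criterion of the methods.
Gdpd1 encodes a phosphodiesterase of the acylethanolamide pathway. It had log2 signals of -5.41 to -4.71 in Group C, -6.22 to -5.57 in Group M, -5.44 to -5.06 in D9 to D11 and -5.67 in D12, without overlap between Group M and Groups C or D9 to D11. The differences were -0.96 (limma adjusted p = 0.0836) and 0.72 (limma adjusted p = 0.109). Fabp5, a carrier of fatty acids and endocannabinoids, ran the other way.
It had 0.75 to 1.96 in Group C, 1.31 to 3.03 in Group M, 0.74 to 0.85 in D9 to D11 and 2.47 in D12, with M6 lowest in Group M and C2 highest in Group C. The log2 differences of 1.20 (limma adjusted p = 0.118) and -1.61 (limma adjusted p = 0.0900) both met the criterion of the methods. Ptgs2, which encodes cyclooxygenase-2 and can oxidise endocannabinoids, had -7.35 to -5.97 in Group C, where 3 of 4 arrays were well above background, and -5.52 to -3.80 in Group M. Its difference was 1.61 (limma adjusted p = 0.101) and met the criterion of the methods. The study lists Ptgs2 as higher in Group M than in Group C. D12 was highest of all with -3.46.

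**Figure D5:**
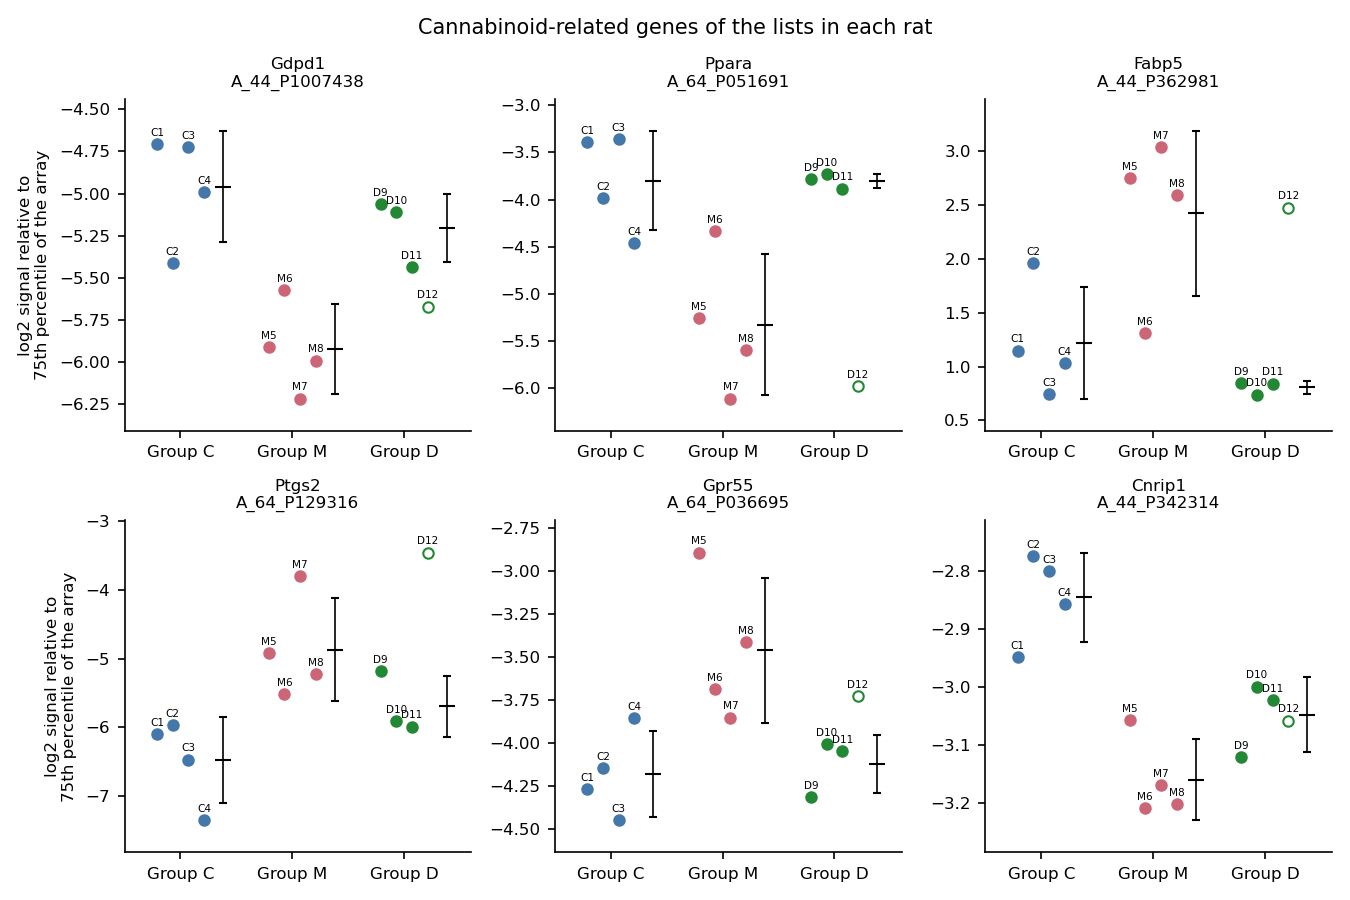
Log2 signal of 6 cannabinoid-related genes of the lists in each rat, relative to the 75th percentile of its array, with the mean ± SD of each group (black bar; Group D without D12, which is an open circle). Gdpd1 and Ppara are lower and Fabp5, Ptgs2 and Gpr55 higher in most rats of Group M than in Group C, and D12 lies within the range of Group M in 5 of the 6 panels and above it for Ptgs2.

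Gpr55, a receptor for lysophosphatidylinositol that some cannabinoids bind, had log2 differences of 0.72 in Group M vs Group C, and of -0.66 for Group D vs Group M (limma adjusted p = 0.113 and 0.143). Cnrip1, whose protein binds the tail of CB1, had -0.31 in Group M vs Group C with a standard error of 0.08, and -0.20 in Group D vs Group C. Adrbk2, a kinase that acts on opioid receptors, differed by -0.76 and Ogfrl1, a relative of the opioid growth factor receptor, by 0.74 in Group M vs Group C. In Group D vs Group M, the calcium channel Cacna1b, which opioid receptors inhibit, differed by 0.56, the G protein Gnao1 by 0.49 and the diacylglycerol lipase Daglb by 0.55. Of the regulators of G protein signalling, Rgs9 was higher in Group D than in Group M by 0.97 and than in Group C by 1.02, where it met the criterion of the methods, and Rgs20 differed by -0.999 and -0.75. Kcnj5, a potassium channel subunit, differed by -0.45 in Group D vs Group C. None of these passed an adjusted p of 0.05.

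Markers of other cells also differed between the groups by the nominal threshold, and 0 of the 82 measured passed the adjusted test. The counts below stand beside 22.7% of all probes past the nominal threshold in Group M vs Group C, and 21.6% for Group D vs Group M. In Group D vs Group M, 7 of 8 macrophage markers were lower by the nominal threshold (10.3% of all probes), with summed levels of 17.7 to 28.2 in Group D, where D12 was highest, and 22.2 to 29.1 in Group M. In Group M vs Group C, 3 of these 8 were higher. In Group D vs Group C, whose slides differed, 4 of the 8 were lower (5.97% of all probes in either direction). In that comparison 2 of 17 neuron and 2 of 12 epithelial markers were higher, and of all 82 markers 6 were higher and 6 lower. Of the 17 markers of enteric neurons, 1 was higher and 1 lower in Group M vs Group C and 4 higher and 1 lower in Group D vs Group M, and their summed level was 6.29 to 7.53 in Group C, 6.50 to 9.42 in Group M and 7.40 to 7.70 in Group D. Of the 12 epithelial markers, 1 was higher in Group M than in Group C and 3 higher in Group D than in Group M, and levels were 188 to 292, 209 to 255 and 174 to 303 in Groups C, M and D. In Group M vs Group C, 2 of 6 glial, 2 of 8 smooth muscle and 1 of 7 enteroendocrine markers were higher, and 0 of 9 adipocyte and 8 T cell markers passed the nominal threshold. The part of these cells in the values of the members was not tested.

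The genes whose pattern over the 12 arrays was most like that of each member were sought among 12553 probes of named genes well above background. Since several probes follow the split of the rats by lymphoid content, these correlations share that split and are descriptions only. Gpr18, a receptor of lipid ligands found on lymphocytes, was nearest to Cnr2 (Pearson r = 0.995), followed by Tbc1d10c and Arl5c. Lyl1, Mtf2 and Srpk3 were nearest to Oprm1 (r = 0.954 to 0.959). For Cnr1, Zc3h8, Cdk10 and Wdsub1 came first on one probe and Sdhaf2, Rpusd4 and Tgds on the other (r = 0.952 to 0.958).
For Napepld, both probes had Wnt2b and Dpp3 among their nearest 3, where Dpp3 is a peptidase that degrades enkephalins, with r of 0.965 to 0.973, and Rnf32 and Snupn completed the 2 lists. For Faah, Ttll1, Sytl1 and Map1lc3b were nearest to one probe and Slc44a3, Acat2 and Tsks to the other (r = 0.973 to 0.984). Kptn, Cat and Mccc2 were nearest to Mgll (r = 0.952 to 0.969), Lrg1, Ebi3 and Krt83 to Penk (r = 0.938 to 0.946), and Sypl1, Stmn3 and Herpud1 to Oprd1 (r = 0.861 to 0.896).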

How the data were processed

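From each rat, 100 ng of colon RNA were labelled (Cy3) and hybridised to a 1-colour Agilent array. Per the file headers, Feature Extraction 10.5.1.1 made the intensity of each spot by background subtraction and correction of trends across the array, and the deposited intensities were not normalized between arrays. The authors' deposited matrix holds log2 values whose quantiles are equal between columns. It was used as an alternative.

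Here, intensities were divided by their array's 75th percentile and log2 transformed without control spots and the 277 to 521 outlier spots per array, and replicate spots (median coefficient of variation per array 3.90% to 6.09%) were averaged by probe. The 3 groups were compared in one model of 11 arrays with limma 3.58.1 under R 4.3.3, with Benjamini-Hochberg adjustment over 30367 probes. A call needed 2-fold and an adjusted p of 0.05 or less. The criterion of the methods was computed on the same values. Rats of a group were separate animals, and the study's methods do not say from which litters they came. The procedure was tested on simulated data. Symbols are those of the files, and 14 of 17 member accessions were found in RefSeq (GRCr8). For the lists, the probe of a gene with the highest mean signal was used. Text names all member probes, up to 8 list genes per comparison with the smallest unadjusted p, the 3 most like genes per member probe, and the probe that the study's tables give for opiate receptor-like 1. Of the genes so chosen, 1 is not reported here. Members and lists were chosen with earlier results of these data known. Figures were drawn with matplotlib 3.10.9.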

Additional observations from a re-analysis of the deposited data

Results flagged for a closer look

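In 4 of 33 groups of 4 rats, over 11 probes and 3 groups, 1 rat lay far from the others, with a gap to the nearest rat, as a share of the range of the group, past the 95% critical value of Dixon's ratio. Chance gives this for about 1 in 20 groups. Cnr2 in rat C2 was at -1.94, while C1, C3 and C4 were at -5.61 to -5.18, a gap of 0.882 of the range. Cnr2 in D12 was at -0.94 and D9 to D11 at -5.12 to -4.64 (0.884). Oprm1 (A_64_P032062) in C2 was at -3.41 against -4.36 to -4.25 (0.885), and Napepld (A_64_P148535) in D12 was at -5.08 against -3.74 to -3.60 (0.906). C2 and D12 had B cell marker levels of 6.03 and 14.8, the highest of their groups. Its part in these values was not tested beyond the fit with this level as a covariate.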

How the results depend on the processing

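Leaving out 1 rat at a time, calls in Group M vs Group C ran from 0 to 7, nominal passes from 6 to 10 and the criterion of the methods from 0 to 7. These ranges were 0 to 4, 3 to 8 and 0 to 4 in Group D vs Group M, and in Group D vs Group C nominal passes ran from 0 to 1. In the comparisons with Group M the highest counts came without M6, except the 10 without C2, and the 3 came without D10. The 0 for the criterion of the methods in Group M vs Group C came without M7. The 1 in Group D vs Group C came without C1. Array quality weights gave 6 calls in Group M vs Group C, against 3 for Group D vs Group M. The criterion of the methods in place of the adjusted test gave 3 probes in Group M vs Group C, and after Benjamini-Hochberg adjustment 0. With normexp background correction it was met by 1 probe there, and in Group D vs Group M by 2 probes after scaling to the median of the array and by 1 after quantile normalization and in the authors' matrix. With the B cell level as a covariate, chosen after seeing the data, 1 probe each passed the nominal threshold in Group D vs Group M and in Group D vs Group C.

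Some log2 differences changed sign. With all 12 arrays, Oprm1 had 0.10 in Group D vs Group M, and in Group D vs Group C Cnr1 (A_44_P1030258) had -0.19, Cnr2 0.59 and Penk 0.15. In Group D vs Group C, Faah (A_64_P128667) had 0.0093 with normexp and 0.015 with the median. With the B cell covariate, Cnr2 had -0.27, 0.43 and 0.16 in Group M vs Group C, Group D vs Group M and Group D vs Group C, Oprd1 0.062 in Group M vs Group C, and Mgll -0.056 and Oprm1 0.44 in Group D vs Group M. Leaving out single rats, values ran from -0.15 to 0.040 for Oprd1 in Group M vs Group C, and from -0.0053 to 0.29 for Mgll in Group D vs Group M. In Group D vs Group C they ran from -0.46 to 0.16 for Cnr1 (A_43_P11563), from -0.25 to 0.31 for Cnr1 (A_44_P1030258), from -0.77 to 0.45 for Cnr2 and from -0.13 to 0.055 for Faah (A_64_P128667). For Penk the range was -0.32 to 0.13. The cause was not tested.

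Same-numbered rats of different groups correlated at -0.559 to 0.126 in their deviations from the group means. These values showed no pairing by number. They also hold the split of the rats by lymphoid content and cannot exclude a pairing. With the number as a replicate block, 0 member probes were called in any comparison, and 6, 5 and 0 passed the nominal threshold in Group M vs Group C, Group D vs Group M and Group D vs Group C. For the 6 member probes on no array well above background, signal limits what can be measured.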
